A study of Mus musculus with 2 samples.

Results

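The endothelin system of the embryonic mouse heart comprised 7 genes of the 43346 mouse genes measured, chosen by name from the known pathway and not by their levels. These are the peptide genes Edn1, Edn2 and Edn3, the receptor genes Ednra and Ednrb, and the converting enzyme genes Ece1 and Ece2. Total RNA was sequenced from hearts of B6NCrl embryos at embryonic day 11.5, healthy and untreated as far as the labels say, with male and female hearts pooled. Both libraries were made from 10 ng of RNA above 200 bases in size. There is 1 group of 2 libraries, replicate 1 (109 embryos) and replicate 2 (no embryo number given), recorded as separate biosamples under one donor identifier. The SD between them is therefore the only error available and may be partly technical. With 2 libraries an exact two-sided test cannot go below p = 0.5, so no test of levels was made.

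Endothelins are short peptides cut out of longer precursors. Proprotein convertases such as furin first cut at pairs of basic residues to release the inactive big endothelin, and a membrane-bound converting enzyme then cuts after a tryptophan to give the active peptide. Both receptors are G protein-coupled, the A type preferring endothelin-1 and endothelin-2 and the B type binding all of them alike. In mice, loss of Edn1, Ednra or Ece1 leads to defects of the pharyngeal arches and the outflow tract of the heart, while loss of Edn3 or Ednrb leads to missing melanocytes and enteric neurons.

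The stretches of the 3 peptide genes that code for the active peptide show what the converting enzymes cut. The capitals at the left mark the pair of codons for basic residues at which the precursor is first cut. Those at the right mark the tryptophan codon that ends the 21-codon active peptide and the first codon beyond the converting enzyme's cut. The sequences were taken from the GENCODE M21 transcripts, placed on GRCm38 (mm10). All 3 lie in exon 2 on the plus strand, at chr13:42303643-42303714 for Edn1, chr4:120161945-120162016 for Edn2 and chr2:174761743-174761814 for Edn3.
Edn1-201: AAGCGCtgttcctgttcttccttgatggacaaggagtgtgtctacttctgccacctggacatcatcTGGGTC
Edn2-201: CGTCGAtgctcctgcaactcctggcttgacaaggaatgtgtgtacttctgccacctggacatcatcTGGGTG
Edn3-201: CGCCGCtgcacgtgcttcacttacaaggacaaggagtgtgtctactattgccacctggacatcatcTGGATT
Over the 63 bases of the active peptide, Edn1 and Edn2 were identical at 53 and differed in 7 codons, of which 3 change the residue. Edn3 stood further from both, with 50 bases shared with Edn1 and 48 with Edn2, and 6 changed residues in either comparison.

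Messenger RNA for the receptors and for Ece1 was abundant in these hearts, Edn1 was the leading ligand, and Edn2 and Edn3 were close to the limit of detection. Levels are given in TPM, a transcript abundance corrected for length and scaled to a fixed sum per library, as the authors deposited it, beside expected counts, the estimated number of reads. Of the 7 genes, 5 reached 1 TPM in both libraries on the deposited values, and 4 with the Ece2 transcripts alone. The same threshold was met by 30.8% of all mouse genes and by 56.4% of protein-coding genes, a share close to 4 of 7. The median member on the deposited values was the Ece2 row at 21.3 TPM, against 7.69 TPM for the 16941 protein-coding genes with a count. Most of that row belongs to another gene, and with the Ece2 transcripts alone the median member is Edn1 at 7.43 TPM, no higher than the protein-coding median. Because these are whole hearts, fewer cells of a type and less RNA per cell cannot be told apart.

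**Figure D1:**
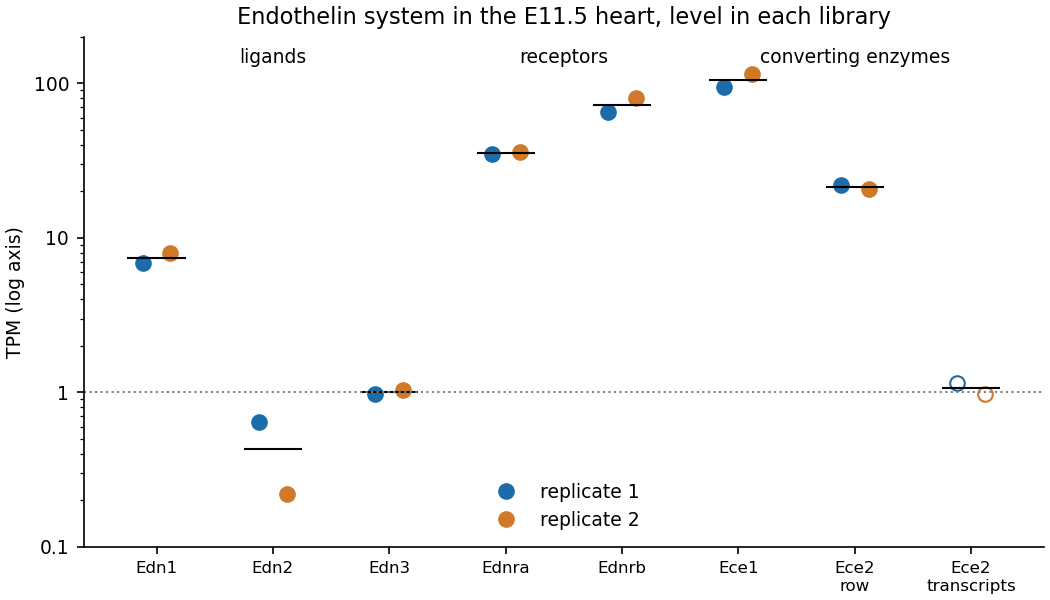
Level of each gene in TPM on a log axis, with 1 point per library, replicate 1 to the left of replicate 2, and a bar at the mean. The dotted line marks 1 TPM, and the open points show the Ece2 transcripts alone. Ece1 and Ednrb stand highest, and the Ece2 transcripts stand near Edn3, far under the deposited Ece2 row.

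Among the ligands, Edn1 (chr13:42301476-42307990, plus strand), which encodes the endothelin of endothelial cells and of the pharyngeal arches, had 6.91 TPM from 443 counts in replicate 1 and 7.94 TPM from 359 counts in replicate 2. Its mean of 7.43 ± 0.728 TPM (SD, n = 2) put 49.4% of protein-coding genes with a count below it, near the middle of that range. Edn3 (chr2:174760619-174784042, plus strand), the ligand of melanoblast and enteric neural crest precursors, had 0.97 TPM from 75 counts in replicate 1 and 1.04 TPM from 37 counts in replicate 2. The libraries straddle the detection threshold, so Edn3 was not counted as detected. That call did not hold under 4 alternatives (posterior mean TPM, CPM, TPM rescaled to mouse genes and a threshold of 0.5 TPM), nor with replicate 1 left out. Edn2 (chr4:120161206-120167360, plus strand), an endothelin known from the ovary and the intestine, had 0.64 TPM from 25 counts in replicate 1 and 0.22 TPM from 6 counts in replicate 2. At these counts the exact 95% Poisson intervals ran from 16.2 to 36.9 counts in replicate 1 and from 2.2 to 13.1 counts in replicate 2, and they cover counting error only.

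Edn1 held 81.1% of the summed ligand TPM in replicate 1 and 86.3% in replicate 2. It exceeded Edn3 7.38-fold (log2 ratio 2.88 ± 0.0707, SD, n = 2), with 2.83 in replicate 1 and 2.93 in replicate 2. The levels of a pair were taken as apart if the same gene was higher in each library and the mean ratio exceeded the difference between the libraries that 95% of genes of the lower gene's expression decile stayed under. For Edn1 and Edn3 that threshold was 1.5, so they stood apart. Edn3 and Edn2 did not, with a log2 ratio of 0.60 in replicate 1 and 2.24 in replicate 2 against a threshold of 2.35.

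Both receptor genes were well above their ligands. Ednrb (chr14:103814625-103844402, minus strand), the B-type receptor, had 65.3 TPM from 7107 counts in replicate 1 and 79.9 TPM from 6142 counts in replicate 2. Ednra (chr8:77663031-77724464, minus strand), the A-type receptor, had 35.0 TPM from 3504 counts in replicate 1 and 35.9 TPM from 2541 counts in replicate 2. The A-type receptor thus differed little between the libraries, and the lower B-type library was still above both A-type values. Ednrb averaged 72.6 ± 10.3 TPM and Ednra 35.5 ± 0.615 TPM (SD, n = 2 each), with 90.0% and 80.0% of protein-coding genes below them.

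Ednrb exceeded Ednra 2.04-fold (log2 ratio 1.03 ± 0.181, SD, n = 2), with 0.90 in replicate 1 and 1.15 in replicate 2, both beyond the threshold of 0.39. The B-type receptor held 65.1% of receptor TPM in replicate 1 and 69.0% in replicate 2. Summed over genes, receptor TPM was 100.3 in replicate 1 and 115.8 in replicate 2, against ligand TPM of 8.52 in replicate 1 and 9.2 in replicate 2. The receptor sum was thus 11.8-fold the ligand sum in replicate 1 and 12.6-fold in replicate 2. These are mRNA levels, and peptide was not measured. The gene 4933431K23Rik lies across Ednra on the opposite strand and had 1.6 TPM in replicate 1 and 1.58 TPM in replicate 2. The strand setting of the counting is not given in the sources used here, so reads of such a pair cannot be told apart.

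Of the converting enzymes, Ece1 (chr4:137862237-137965229, plus strand), the main endothelin-converting enzyme of the mouse embryo, was the highest of the 7 genes. It had 94.4 TPM from 9352 counts in replicate 1 and 115.7 TPM from 8150 counts in replicate 2, and 93.2% of protein-coding genes lay below its mean of 105.0 ± 15.0 TPM (SD, n = 2). The antisense gene Gm13012 lies within Ece1 and had 0.23 TPM in replicate 1 and 0.09 TPM in replicate 2. Ece2, a related protease active at acidic pH and known from neural tissue, was listed at 21.9 TPM from 678 counts in replicate 1 and 20.8 TPM from 460 counts in replicate 2. On these deposited values Ece1 exceeded Ece2 4.91-fold (log2 ratio 2.29 ± 0.260, SD, n = 2, threshold 0.46).

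The Ece2 value was almost entirely that of a neighbouring gene. The deposited row with the Ece2 identifier holds 11 transcripts, and GENCODE M21 gives 2 of them to Eef1akmt4, a methyltransferase gene upstream on the same strand. These 2 together held 20.7 TPM in replicate 1 and 19.8 TPM in replicate 2, which is 94.7% and 95.1% of the row. The transcript Eef1akmt4-201 alone, with 3 exons, had 600.4 counts in replicate 1 and 408.3 counts in replicate 2. The 6 transcripts that M21 keeps under Ece2 (chr16:20629828-20646485) summed to 1.15 TPM from 66.0 counts in replicate 1 and 0.97 TPM from 46.4 counts in replicate 2. Their exons share 0 bases with those of Eef1akmt4, which ends 10816 bases upstream of the Ece2 start. A further 2 transcripts of the row, named Gm49333, run through both genes and had 0 TPM in replicate 1 and 0.05 TPM in replicate 2. The remaining transcript has no M21 entry and was at 0 in both.

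**Figure D2:**
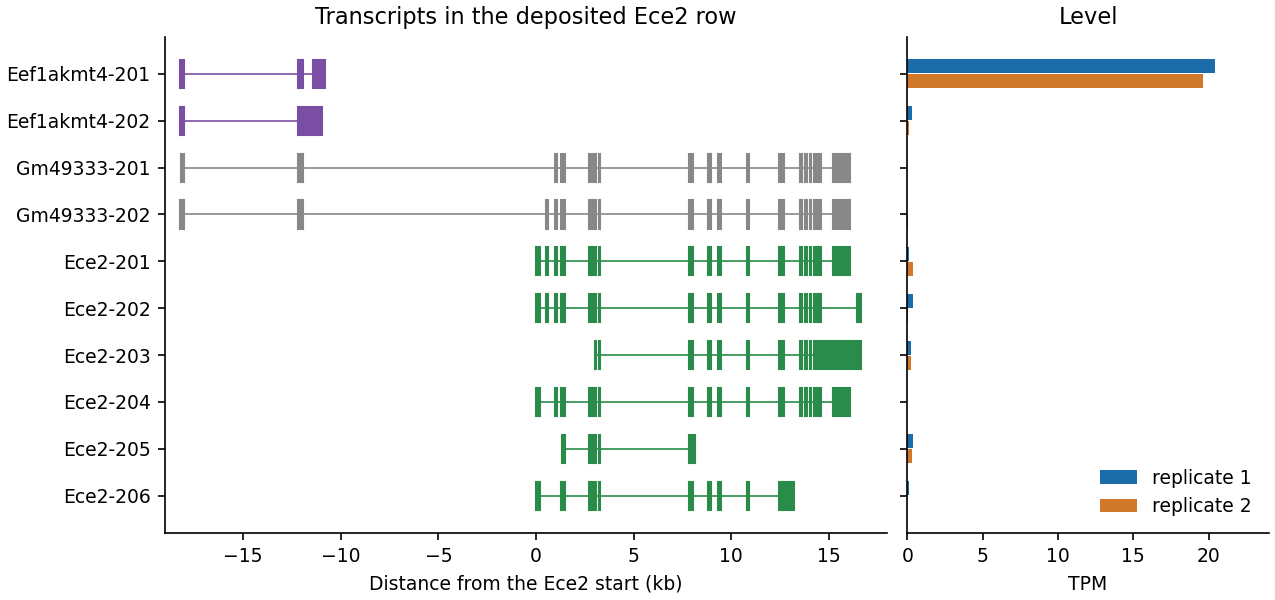
Left, exons (boxes) of the transcripts in the deposited Ece2 row by distance in kb from the Ece2 start, with Eef1akmt4 in purple, the transcripts running through both genes in grey and Ece2 in green. Right, the TPM of each transcript as bars, replicate 1 above replicate 2. Eef1akmt4-201 stands near 20 TPM in both libraries, and every other transcript of the row is under 1 TPM.

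The coding sequences were also searched for the active site of the enzymes. Converting enzymes are zinc metalloproteases of the neprilysin family, whose active site holds the residues HEXXH, with 2 histidines that bind zinc. A search of the translated coding sequences for this motif found 1 match in Ece1-201, 1 in Ece2-201 and none in Eef1akmt4-201 or Eef1akmt4-202. The shorter Ece1 transcripts Ece1-203 and Ece1-204 had none either, so absence of the motif does not by itself mark another gene. Ece2 transcripts other than Ece2-201 were not searched. The stretches around the matches are shown because they set Ece1-201 and Ece2-201 apart from the transcript that holds most of the row. The 5 codons of the motif are in capitals (GENCODE M21, plus strand, chr4:137957160-137957198 in exon 17 of Ece1 and chr16:20643878-20643916 in exon 16 of Ece2).
Ece1-201: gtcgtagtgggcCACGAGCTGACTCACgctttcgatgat
Ece2-201: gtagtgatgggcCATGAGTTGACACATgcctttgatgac
Of the 39 bases, 29 were identical, and of the 13 codons 10 differed but only 1 changes the residue. Within the motif 4 of 5 codons differed and 0 change the residue. A match is a description of the sequence, and absence of one says only that the letters are not there.

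With the Ece2 transcripts alone, an alternative added after seeing the data, Ece1 exceeded Ece2 82.1-fold in replicate 1 and 119.2-fold in replicate 2. Edn1 then exceeded Ece2 6.01-fold in replicate 1 and 8.19-fold in replicate 2, whereas the deposited Ece2 row exceeded Edn1 (log2 ratio 1.52 ± 0.195, SD, n = 2, threshold 0.62). The number of members detected in both libraries was 4 with the Ece2 transcripts alone, against 5 with the deposited row, since 0.97 TPM in replicate 2 falls short of the threshold. The share of protein-coding genes detected was 56.4%.

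From high to low, the deposited order was Ece1, Ednrb, Ednra, the Ece2 row, Edn1, Edn3 and Edn2, and 5 of the 6 neighbouring pairs stood apart. Ednra exceeded the Ece2 row 1.67-fold (log2 ratio 0.74 ± 0.0782, SD, n = 2, threshold 0.46). Ece1 exceeded Ednrb 1.45-fold (log2 ratio 0.53 ± 0.0015, SD, n = 2, threshold 0.39). In TPM, this last call depended on 1 very short transcript. Ece1-203, of 172 bases, held 21.9% of Ece1 TPM in replicate 1 and 21.2% in replicate 2, from 43 counts in replicate 1 and 36 counts in replicate 2, or 0.46% and 0.442% of the gene's counts. Its effective length of 73 bases, the length TPM is divided by, turns those counts into 20.6 TPM in replicate 1 and 24.5 TPM in replicate 2. The labels give RNA above 200 bases for both libraries, and Ece1-203 is shorter than that. With transcripts of 200 bases or more alone, Ece1 had 73.8 TPM in replicate 1 and 91.2 TPM in replicate 2, and its log2 ratio to Ednrb was 0.18, within the threshold. This alternative too was added after seeing the data. In CPM, where that transcript weighs little but gene length is not corrected for, the log2 ratio was 0.40, just past the threshold.

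Transcript shares were close between the libraries for both receptors and for Ece1. The receptor transcript Ednrb-201 held 68.5% of Ednrb TPM in replicate 1 and 66.3% in replicate 2. Ednrb-202, which starts 706 bases downstream, held 31.5% in replicate 1 and 33.7% in replicate 2. Ednra-201 held 95.8% of Ednra in replicate 1 and 97.6% in replicate 2, the rest falling to a transcript with a retained intron. The full-length enzyme transcript Ece1-201 held 72.6% of Ece1 TPM in replicate 1 and 73.2% in replicate 2, from 9218 counts in replicate 1 and 8040 counts in replicate 2. Ece1-204, which starts 51234 bases downstream, held 5.25% in replicate 1 and 4.71% in replicate 2. Edn1 and Edn2 have 1 transcript each in the tables.

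Edn3 was the exception. Edn3-201 held 77.8% of Edn3 TPM in replicate 1 and 47.5% in replicate 2, and the shorter coding transcript Edn3-203 held 0.62% in replicate 1 and 52.5% in replicate 2. The share of Edn3-203 in replicate 2 came from 6.96 counts. In the authors' posterior means the libraries differed less, with Edn3-203 at 20.0% in replicate 1 and 46.7% in replicate 2 and Edn3-201 at 53.0% in replicate 1 and 40.4% in replicate 2. The mean length assigned to the gene was thus 2801 bases in replicate 1 and 1863 bases in replicate 2. Edn3 was accordingly lower in replicate 1 in TPM but higher there in scaled counts (log2 ratio of replicate 1 over replicate 2 of 0.56, 95% interval -0.02 to 1.17).

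**Figure D3:**
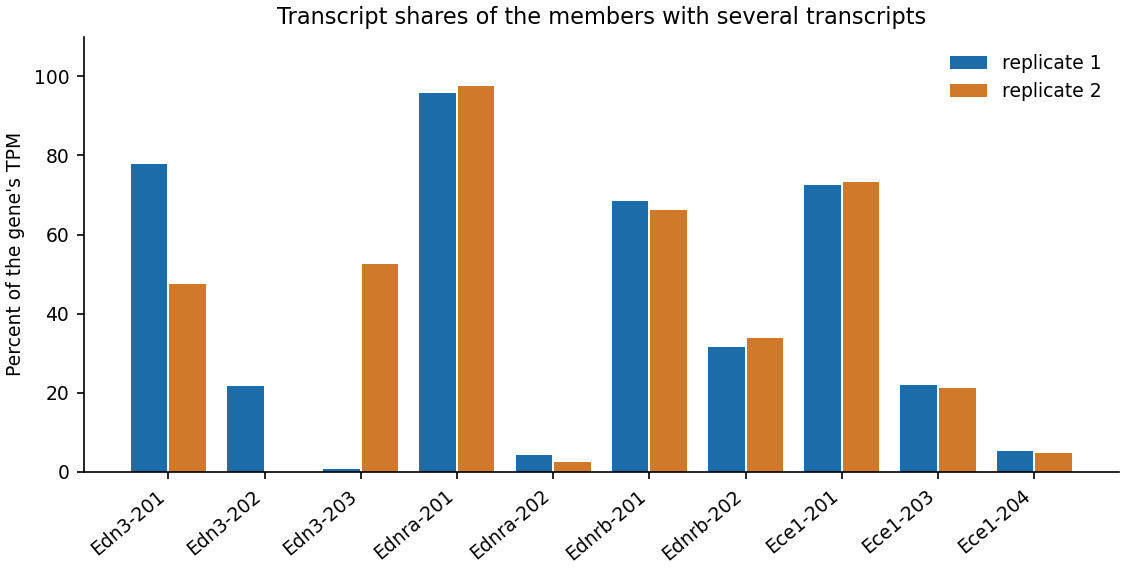
Percent of each gene's TPM held by its transcripts, with 1 bar per library, replicate 1 to the left of replicate 2. Shares of Ednra, Ednrb and Ece1 transcripts lie within 4 percentage points between the libraries, while Edn3-201 and Edn3-203 differ by far more.

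The libraries were next compared gene by gene, from counts scaled by library size (TMM), for genes with a summed count of 20 or more. Of the 7 genes, 1 differed by 2-fold or more, against 6.08% of the 16621 genes compared, and 4.28% that were higher in replicate 1. That gene was Edn2, higher in replicate 1 with a log2 ratio of 1.52 (exact 95% interval for counting error 0.28 to 3.18). Among the genes of its expression decile, the lowest, 22.1% were 2-fold or more higher in replicate 1, and 85.2% of them had a smaller difference than Edn2. The foregut and pharyngeal epithelium markers summed to 37.0 TPM in replicate 1 and 28.3 TPM in replicate 2, with 3 of 7 detected in both, a range of gene means from 0.09 to 26.9 TPM, and 3 of the 6 compared higher in replicate 1 by 2-fold or more. The hepatic markers summed to 246.2 TPM in replicate 1 and 67.9 TPM in replicate 2, with 5 of 5 detected, none at 0, and 4 of the 5 past 2-fold. Whether such tissue has a part in the Edn2 difference was not tested.

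Ednrb and Ece1 were lower in replicate 1 by less than 2-fold, with log2 ratios of -0.24 (interval -0.29 to -0.19) and -0.26 (interval -0.30 to -0.21). In their deciles, 85.1% and 91.0% of genes had a smaller difference, so neither stood beyond the 95% threshold. The 11 endocardial and endothelial markers, from cells known to make Ece1 and Ednrb, summed to 528.9 TPM in replicate 1 and 613.3 TPM in replicate 2, with a median log2 ratio of -0.16. All 11 were detected, from Npr3 at 8.58 TPM to Plvap at 115.7 TPM, and their part in the difference was not tested. Ednra (log2 ratio 0.01, interval -0.06 to 0.08), Edn1 (-0.15, interval -0.36 to 0.05) and the Ece2 row (0.10, interval -0.07 to 0.28) had intervals that include 0.

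**Figure D4:**
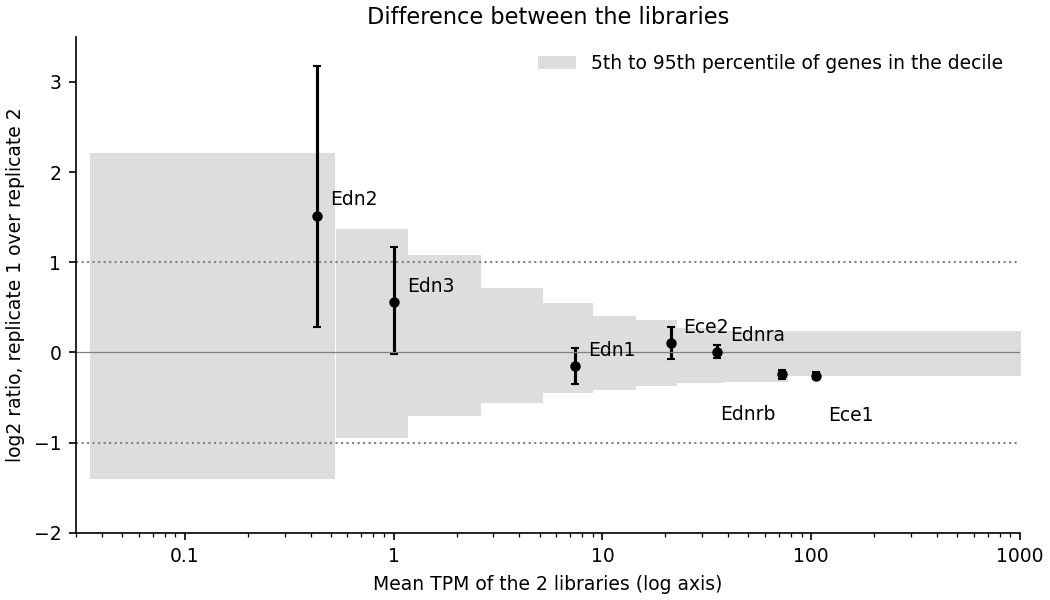
Log2 ratio of replicate 1 over replicate 2 against mean TPM (log axis) for the 7 genes, with exact 95% intervals for counting error as bars. Grey bands hold the 5th to 95th percentile of all genes in each expression decile, and dotted lines mark 2-fold. Only Edn2 is past 2-fold, and it lies within the wide band of the lowest decile.

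Markers of the labelled tissue were present. All 6 cardiomyocyte markers were detected at a median of 1227 TPM, all 5 epicardial markers at 37.6 TPM and all 7 cushion mesenchyme and smooth muscle markers at 100.9 TPM. Neural crest markers were low, with 2 of 6 detected and Sox10 at 0.885 ± 0.0636 TPM. The 6 erythroid markers had a median of 6660 TPM, led by embryonic globins. Expected counts totalled 37617442 in replicate 1 and 27642765 in replicate 2, the median gene differed by a log2 ratio near 0, and Pearson's r across 14501 genes was 0.984, a description in which genes are not independent replicates.

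Genes on either side of the 7 in the pathway were read from lists of related genes. Their counts stand beside 56.4% of all protein-coding genes detected in both libraries. The lists were chosen with earlier results of these data known, so such counts are descriptions only. Of 7 proprotein convertases, the family that furin belongs to, 4 were detected, with a median of 4.38 TPM. Furin had 17.5 TPM in replicate 1 and 11.9 TPM in replicate 2, and Pcsk5 had 13.3 TPM in replicate 1 and 13.8 TPM in replicate 2, so their order differed between the libraries. Pcsk7 followed at 8.86 ± 2.45 TPM (SD, n = 2), and the neuroendocrine convertase Pcsk1 was lowest at 0.04 TPM. Among 5 other proteases of the neprilysin family, 2 were detected, with a median of 0.385 TPM. These were Kel, the Kell blood group protease of red cells, known to cut big endothelin-3, at 35.0 ± 6.66 TPM, and Mme, the endothelin-degrading neprilysin, at 8.14 ± 0.453 TPM.

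Of 11 G protein, phospholipase C-beta and arrestin genes that couple the receptors or desensitise them, 10 were detected, with a median of 11.8 TPM. Gnai2, an inhibitory G protein, had 229.4 ± 3.24 TPM, Gna11, of the class that drives phospholipase C, had 42.2 ± 1.87 TPM, and Gna12 had 24.8 ± 0.580 TPM (SD, n = 2 each). Plcb2, the phospholipase of blood cells, was lowest at 0.875 TPM. None of the 11 differed 2-fold between the libraries, against 6.08% of all genes compared.

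Genes known to depend on the receptors elsewhere in the embryo were read the same way, beside the same share of 56.4%. Of 7 genes downstream of the A-type receptor in the cranial neural crest, 4 were detected, with a median of 1.32 TPM. They were led by Hand1 at 44.3 ± 1.88 TPM, Mef2c at 37.7 ± 6.23 TPM and Hand2 at 13.5 ± 0.297 TPM (SD, n = 2 each), which heart cells are known to express in their own right. Dlx6, a jaw patterning factor, was lowest at 0.175 TPM. Of 10 genes of the melanoblast and enteric lineages that need the B-type receptor, 2 were detected, with a median of 0.318 TPM. Those 2 were Mitf at 15.3 ± 2.82 TPM and Kit at 7.57 ± 0.523 TPM, both also expressed outside those lineages, while the pigment enzyme gene Tyrp1 was listed at 0 in both libraries. The B-type receptor, at 72.6 TPM, was thus measured beside low levels of most markers of the lineages it is best known for.

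**Figure D5:**
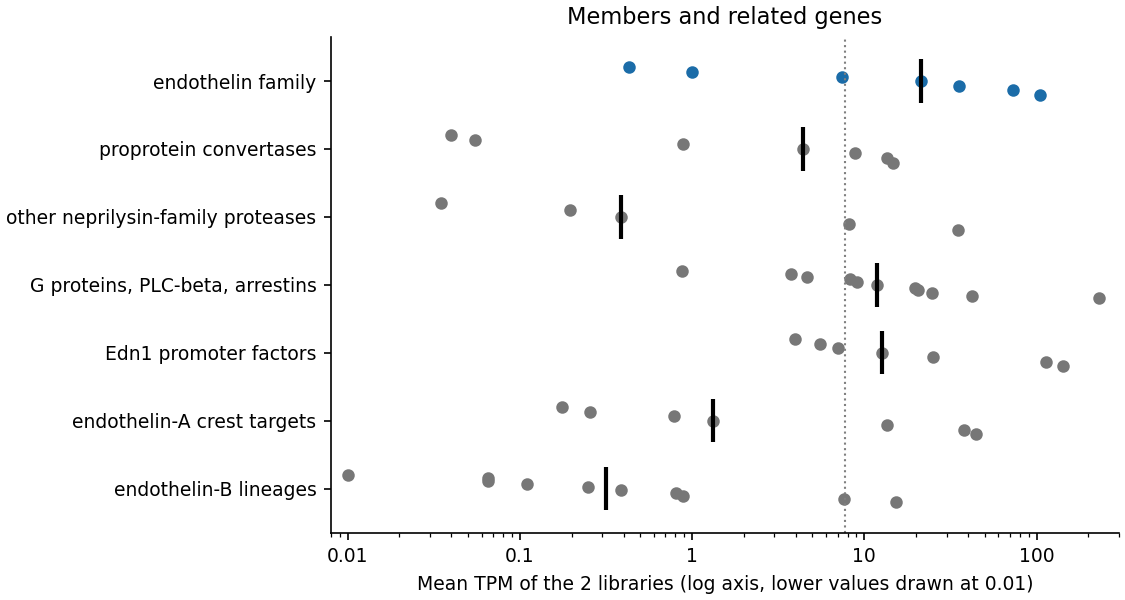
Mean TPM (log axis) of each gene in the endothelin family and 6 related lists, with a bar at each list's median and a dotted line at the median of protein-coding genes, 7.69 TPM. Points for genes at 0 are drawn at 0.01. The bar of the endothelin family, at 21.3 TPM, is the deposited Ece2 row, most of which belongs to Eef1akmt4. With the Ece2 transcripts alone the median member is Edn1, no higher than the dotted line. The melanoblast and enteric list has most of its genes under 1 TPM, and the list of factors acting at Edn1 has none there.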

How the data were processed

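Per the file headers, the authors deposited expected counts (estimated reads, not normalized), TPM and the percent of each gene held by each transcript, for genes and transcripts of each library. TPM sums to a fixed total over all rows, spike-in and tRNA rows included. Spike-ins took 8.43% of counts in replicate 1 and 8.61% in replicate 2. Their share of TPM was larger, with 160200 TPM in replicate 1 and 170600 TPM in replicate 2. Mouse genes held 839800 TPM in replicate 1 and 829400 TPM in replicate 2. The README texts name mm10 and annotation release M4. The aligner and quantifier, their versions and the strand setting were not given in the sources used here. Symbols, exons and sequences came from GENCODE M21 on GRCm38, which matched 42462 of 43346 genes (98.0%).

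The genes and lists were chosen with earlier results of these data known. All 7 genes were named, and of each list at most the 3 highest and the lowest. Transcripts at 10% or more in both libraries were named, others after their values were seen. A gene was detected at 1 TPM or more in both libraries.

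Library ratios used rounded expected counts plus 0.5, scaled by TMM in edgeR 4.0.16 (R 4.3.3), for genes with a summed count of 20 or more, with exact 95% Clopper-Pearson intervals for counting error. The calculation was tested on simulated counts with known changes and counting error only. That simulation does not show how the intervals behave at the larger spread between these libraries. A chi-square of 24.8 per gene showed that the libraries are not copies. Alternatives were posterior mean TPM, CPM, rescaling to mouse genes, protein-coding transcripts, an added 1 TPM, other filters, thresholds and scalings (DESeq2 1.42.0 size factors among them), leaving out each library, and 2 added after seeing the data. Python 3.11.15 with numpy 2.4.6, pandas 2.3.3, scipy 1.17.1 and matplotlib 3.10.9 was used.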

Additional observations from a re-analysis of the deposited data

How the results depend on the processing

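Of 23 alternative values of the ratios Ednra to Ednrb, Ece1 to Ece2 and Edn1 to Edn3, 0 reversed and 17 stayed within 1 SD. Part of that count was fixed in advance. With n = 2, leaving out a library always stays within 1 SD, and rescaling to mouse genes cancels in a ratio. Except with the transcripts M21 keeps under Ece2, every Ece1 to Ece2 value used a level that is mostly Eef1akmt4. Those values therefore do not bear on Ece2 itself. The log2 ratio of Ece1 to Ece2 was 3.97 in CPM, which has no length correction, and, in alternatives added after seeing the data, 6.63 with the transcripts M21 keeps under Ece2 and 1.94 with transcripts of 200 bases or more. That of Edn1 to Edn3 was 2.58 with posterior mean TPM, 3.05 with protein-coding transcripts and 2.07 with 1 added to each TPM, where the addition itself shrinks the ratio. With the M21 transcripts, Ece2 to Edn1 reversed to -2.81. Leaving out each library in turn gave -1.15 to -0.90 for Ednra to Ednrb, 2.11 to 2.48 for Ece1 to Ece2, 2.83 to 2.93 for Edn1 to Edn3, and 5 to 6 detected members. The count of detected members was also 6, with Edn3 added, with posterior mean TPM, CPM, TPM rescaled to mouse genes and a threshold of 0.5 TPM, and 5 with protein-coding transcripts. These counts all take in the Eef1akmt4 transcripts of the Ece2 row. With the transcripts M21 keeps under Ece2, the count was 4. Edn2 stayed the only member past 2-fold in the 5 alternatives run for that count. Without the count filter, 23.9% of genes were past 2-fold, against 14.5% at a 1.5-fold threshold. Depth limits Edn2, Edn3 and the Ece2 transcripts. No paired analysis was possible because there is 1 group.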

Other observations

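Factors known to act at the Edn1 promoter were all present. All 7 were detected in both libraries, against 56.4% of protein-coding genes, with a median of 12.7 TPM. The list was chosen with earlier results of these data known, so the count is a description only. None differed 2-fold between the libraries, against 6.08% of all genes compared. The hypoxia factor Hif1a had 134.1 TPM in replicate 1 and 152.4 TPM in replicate 2. The cardiac and endocardial factor Gata4 had 106.4 TPM in replicate 1 and 119.4 TPM in replicate 2. Jun, a subunit of AP-1, had 25.1 ± 0.396 TPM, and its partner Fos was lowest at 3.94 ± 0.905 TPM (SD, n = 2 each). Levels of these mRNAs do not show binding at Edn1, which was not measured.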
